A study of Mus musculus with 5 samples.

Results

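*Il2ra* and *Il2rb* encode the alpha chain (CD25) and the beta chain (CD122) of the receptor for interleukin 2 (IL-2), and they stood on opposite sides of the comparison between *Irf8*-OE and control bone marrow-derived dendritic cells (BMDCs). *Il2ra* was abundant in the control cultures and 4.40-fold lower in *Irf8*-OE, whereas *Il2rb* was close to the limit of detection in the controls and 3.06-fold higher in *Irf8*-OE. The *Il2rb* difference was smaller, at 0.65 and 0.66 on the log2 scale, and no longer called, when the samples were rescaled on the listed genes by quantile normalization or by DESeq2. Both genes were chosen by name from the authors' list of differentially expressed genes, 2 of the 1355 listed genes. That list was itself made from the difference between these groups in these samples, so the levels, the fold changes and the ratio of the subunits are given as a description, with no test. The other subunit, *Il2rg*, is not listed and was not analysed here.

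The alpha chain binds IL-2 but carries no signal on its own. The beta chain and the common gamma chain transmit the signal through the kinases JAK1 and JAK3 to the transcription factor STAT5, and the beta chain also serves the receptor for IL-15. Cells that carry all the chains bind IL-2 with high affinity. Regulatory and activated T cells are the best known carriers of CD25, and activated dendritic cells and some mast cells and basophils can carry it too. CD122 is best known on natural killer (NK) cells and memory CD8+ T cells.

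RNA was sequenced from 3 *Irf8*-OE and 2 control cultures of bone marrow cells from 8-week-old C57BL/6 mice described as male. The labels give the controls as wild type, whereas the study's text names *Irf8* CAG-LSL mice, which carry the silent transgene, as the controls. *Irf8*-OE mice carry that transgene together with *Itgax* Cre, so that overexpression is switched on in cells that have used the *Itgax* (CD11c) promoter. All cultures were grown with GM-CSF and Flt3L, replated on day 9 and collected on days 15 to 16, and every sample is labelled as stimulated with TNF-α. The labels do not state that the samples came from separate animals, so the spread between them may be technical.

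The unit throughout is the normalized count, which is the number of reads of a gene divided by 1 size factor per sample. The listed genes held between 646123 and 1062127 reads per sample, a part of each library only. *Irf8* itself had 2835 and 2747 normalized counts in the controls against 7141, 6519 and 6021 in *Irf8*-OE, higher in every *Irf8*-OE sample. The sex-linked genes went against the label: *Xist*, made from the inactive X chromosome of female cells, had 10772 to 13476 normalized counts in *Irf8*-OE and at most 1.12 in the controls, while 4 of 4 Y-linked genes had 0 reads in every *Irf8*-OE sample and 484 to 1385 normalized counts in the controls. Sex and genotype therefore divide the samples in the same way and cannot be told apart in any value below. Only 5 of 20 dendritic cell markers are listed. The defining markers *Itgax*, *Flt3* and *Zbtb46* are not among them, so the labelled cell type could not be checked on them. Of the 5 listed, *Itgae*, *Tlr11* and *Siglech* were higher in *Irf8*-OE and *Cd24a* and *Cd209a* lower. *Cd24a* was the most abundant, at a mean of 10057 normalized counts in controls and 3855 in *Irf8*-OE. *Tlr11* had only 5 and 6 reads in controls and 17 to 28 in *Irf8*-OE. *Siglech* had 0 reads in both controls and 15 to 16 in *Irf8*-OE, and *Cd209a* had 45 and 85 against 6 to 9. *Cpa3*, a mast cell marker, held 17.3% and 17.6% of the listed reads in controls and 3.18% to 3.74% in *Irf8*-OE.

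*Il2ra* (ENSMUSG00000026770) lies on the plus strand of chromosome 2 (chr2:11642807-11693193, mm10), and its first annotated transcript has 8 exons. Of both members, *Il2ra* is the 1 with an entry in the RefSeq promoter table (GRCm38.p6). The 250 bases before its RefSeq start are shown because NF-κB, a factor switched on by TNF-α, is known to act on this gene, and because IRF8 is the factor overexpressed here. They cover chr2:11642542-11642791 on the plus strand, and capitals mark the overlapping matches to the NF-κB motif.

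Il2ra promoter: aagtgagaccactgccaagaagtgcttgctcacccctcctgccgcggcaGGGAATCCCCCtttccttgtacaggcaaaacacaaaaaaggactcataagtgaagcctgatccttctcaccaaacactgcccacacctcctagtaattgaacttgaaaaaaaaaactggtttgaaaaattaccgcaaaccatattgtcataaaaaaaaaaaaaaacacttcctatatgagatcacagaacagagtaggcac

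Motifs were searched on both strands. The NF-κB motif, GGG and CC with 5 free bases between them, matched at 2 overlapping places, from 201 to 191 bases before the start, and 45.8% of 32851 promoter windows of this length hold a match. The interferon-stimulated response element (GAAA, 2 free bases, GAAA), the ETS-IRF composite element (GGAA, 2 free bases, GAAA) and the STAT5 motif TTCNNNGAA had 0 matches in this window, and they occur in 2.98%, 2.30% and 7.02% of all windows. The GATA motif, GATA, had 0 matches and occurs in 53.6% of windows, and the ETS core GGAA matched at 3 places, 1 of them inside the NF-κB match, and occurs in 93.4%. A match describes the letters only, and the lack of one says nothing about binding of the factor.

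*Il2ra* had 9636 and 9659 normalized counts in the 2 control samples. In the 3 *Irf8*-OE samples it had 1952, 2230 and 2392. The groups were far apart, with the highest *Irf8*-OE sample well below the lower control, and *Irf8*-OE replicate 1 was the lowest of all. The means were 9648 ± 16.6 (SD, n = 2) in the controls and 2191 ± 223 (SD, n = 3) in *Irf8*-OE. On the scale log2(normalized counts + 1), the change fitted across all listed genes by limma was -2.14 (standard error 0.09). Between 2036 and 10066 reads lay behind each value, and the counting interval of the ratio of controls to *Irf8*-OE was 4.29 to 4.53 (95%, exact, covering counting error only).

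*Il2rb* (ENSMUSG00000068227) lies on the minus strand of chromosome 15 (chr15:78479256-78495271, mm10), and its first annotated transcript has 10 exons. It had 8.99 and 10.6 normalized counts in the controls, from 8 and 11 reads. In *Irf8*-OE it had 33.5, 26.1 and 30.1 normalized counts, from 35, 28 and 30 reads. The groups did not overlap for either gene, as for all 1355 listed genes. The exact 95% Poisson intervals of both controls, 3.88 to 17.7 and 5.27 to 18.9, overlapped that of *Irf8*-OE replicate 2, 17.4 to 37.8. The means were 9.77 ± 1.11 (SD, n = 2) and 29.9 ± 3.71 (SD, n = 3), and the fitted log2 change was 1.52 (standard error 0.26). Summed over samples, 93 reads in *Irf8*-OE stood against 19 in the controls, and the counting interval of the ratio, 1.84 to 5.28, was much wider than that of *Il2ra*.

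**Figure D1:**
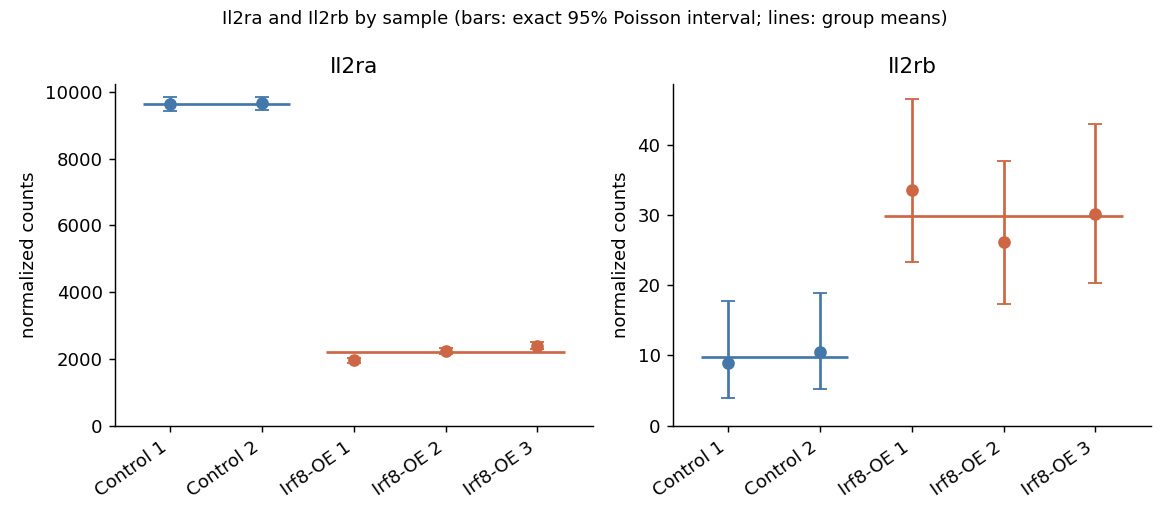
Normalized counts of *Il2ra* (left) and *Il2rb* (right) in each of the 5 samples, on axes that start at 0. Points are samples, bars are exact 95% Poisson intervals for counting error and lines are group means: *Il2ra* is at 9636 and 9659 in the controls and at 1952 to 2392 in *Irf8*-OE, and *Il2rb* is at 8.99 and 10.6 against 26.1 to 33.5.

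The list was called again with limma under the thresholds of the study (adjusted p below 0.05, log2 fold change beyond 1 in either direction), and 99.1% of the 1355 genes passed. The share called higher in *Irf8*-OE was 58.1% (787 genes) and the share called lower was 41% (556 genes). *Il2ra* was among the lower and *Il2rb* among the higher genes, which follows from how the list was made. When DESeq2 estimated its own size factors on the listed genes alone, the median of all genes fell by 0.95 on the log2 scale, and 293 genes were called higher and 558 lower. *Il2ra* was still called under every alternative setting tried. *Il2rb* stayed above 0 in all of them, but it was not called after quantile normalization, with DESeq2's own size factors (with all samples or without *Irf8*-OE replicate 3), or at an absolute log2 fold change of 2.

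Among all listed genes, *Il2ra* was the 29th most abundant, and its change was the 153rd largest of the 558 genes with a lower mean log2 level. *Il2rb* was the 1089th in abundance and the 495th by size of change of the 797 higher genes. The median log2 fold change was -1.65 over the lower and 1.81 over the higher genes, so *Il2ra* changed more than the median of its direction and *Il2rb* less.

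**Figure D2:**
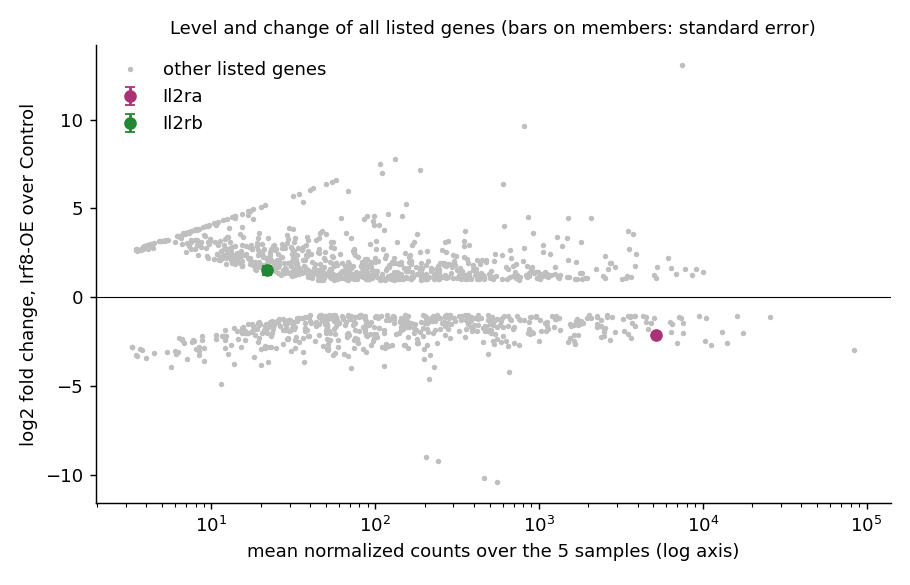
Log2 fold change of *Irf8*-OE over control (vertical axis) against the mean normalized counts over the 5 samples (horizontal axis, log scale) for the 1355 listed genes in grey, with *Il2ra* and *Il2rb* in colour and their standard errors as bars. *Il2ra* lies among the abundant lower genes at -2.14 and *Il2rb* among the rare higher genes at 1.52, and the empty band around 0 is the authors' threshold.

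The ratio of alpha to beta transcripts was taken within each sample, where the size factor cancels, and per kilobase of exons (5.711 kb for *Il2ra* and 4.287 kb for *Il2rb*). It was 805 and 687 in the controls. In *Irf8*-OE it was 43.7, 64.0 and 59.6. The lower control ratio was more than 10 times the highest *Irf8*-OE ratio, and the alpha chain was the more abundant transcript in every sample. The groups did not overlap, which was fixed in advance, because each gene already separated the groups, in opposite directions. The exact binomial intervals (95%) were wide, 408 to 1864 and 384 to 1376 in the controls, and ran from 31.3 to 96.6 over the *Irf8*-OE samples. No control interval met any *Irf8*-OE interval, which is no separate evidence for genes chosen in this way. Within each group the intervals overlapped, so the order of samples within a group was not resolved at this depth.

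The mean log2 ratio was 9.54 ± 0.16 (SD, n = 2) in the controls and 5.78 ± 0.29 (SD, n = 3) in *Irf8*-OE. The difference, -3.76 on the log2 scale, is a ratio 13.5-fold lower in *Irf8*-OE. It joins the lower alpha chain and the higher beta chain, and since both genes were chosen for their own difference it was not tested. Expressed as a share of reads, *Il2rb* made up 0.0932% and 0.109% of the reads of both genes in the controls, and 1.69%, 1.16% and 1.24% in *Irf8*-OE. The sum of both subunits per kilobase followed *Il2ra* almost entirely, at 1689 and 1694 normalized counts per kilobase in controls against 350 to 426 in *Irf8*-OE.

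**Figure D3:**
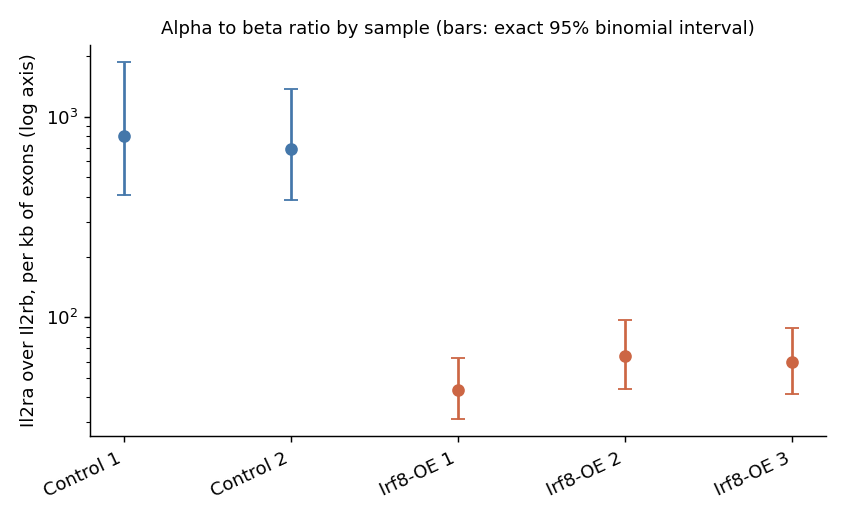
Ratio of *Il2ra* to *Il2rb* per kilobase of exons (log axis) in each of the 5 samples. Points are samples and bars exact 95% binomial intervals for counting error: the controls sit at 805 and 687 and the *Irf8*-OE samples between 43.7 and 64.0.

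A set of 16 genes covered cytokines that use the common gamma chain and their receptors, together with the related *Tslp* and its receptor *Crlf2*. Of these 16, 5 are listed, 4 of them lower and 1, *Il2rb*, higher. Being listed already means being called, and 41% of all listed genes were called lower and 58.1% higher, which is the background for this and every list below. The other 11, among them *Il2* itself, *Il15*, *Il15ra* and *Il2rg*, are not listed. Per kilobase of exons, the control levels ran from *Il4ra*, the IL-4 receptor alpha chain, at 2598 ± 25.8 (SD, n = 2) normalized counts per kilobase, to *Il2ra* at 1689 ± 2.91, then *Il9r*, the IL-9 receptor, at 73.8 ± 0.65 and the cytokine gene *Il4* at 67.3 ± 3.23, down to *Il2rb* at 2.28 ± 0.26. In *Irf8*-OE the order was *Il4ra* at 1165 ± 23.7 (SD, n = 3), *Il2ra* at 384 ± 39.0, *Il4* at 32.8 ± 2.77, *Il9r* at 16.3 ± 2.32 and *Il2rb* at 6.98 ± 0.86, so *Il4* and *Il9r* changed places. In neither group did the sample ranges of neighbours in these orders overlap.

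The log2 fold change of *Il9r*, -2.18 (standard error 0.15), lay beside that of *Il2ra*. Those of *Il4ra* and *Il4* were smaller, at -1.16 and -1.02. *Il9r* had 363 and 368 normalized counts in the controls and 93.0, 78.4 and 70.3 in *Irf8*-OE, so the *Irf8*-OE sample lowest for *Il2ra* was the highest for *Il9r*.

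**Figure D4:**
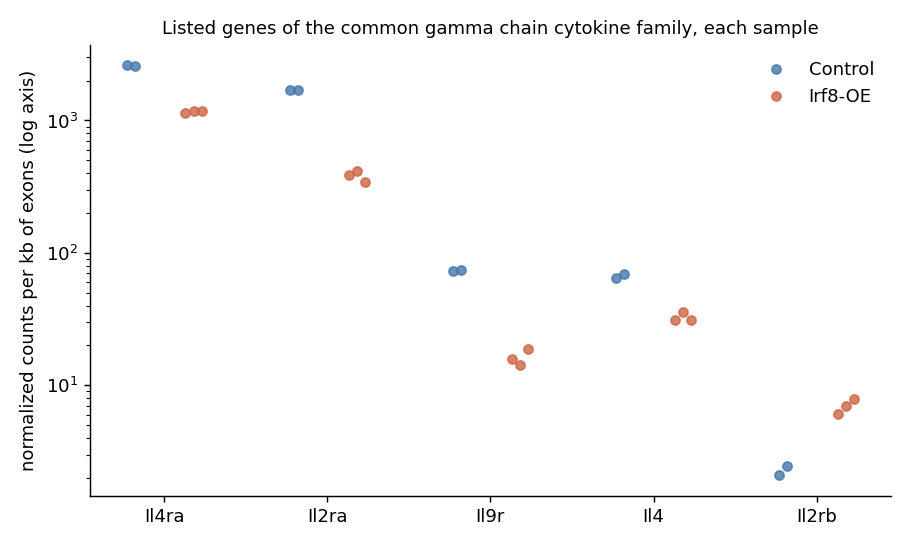
Normalized counts per kilobase of exons (log axis) of the 5 listed genes of the common gamma chain family, ordered by their control level. Each point is 1 sample: *Il4ra*, *Il2ra*, *Il9r* and *Il4* are lower in every *Irf8*-OE sample, and *Il2rb*, the lowest of the 5, is higher.

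Of 28 genes that carry the signal from the IL-2 receptor, 1 is listed. *Lck*, a kinase of T cells that also associates with the beta chain, had 10.1 and 20.2 normalized counts in the controls and 44.1, 38.3 and 49.2 in *Irf8*-OE, a log2 fold change of 1.54. The 27 unlisted genes include *Jak1*, *Jak3*, *Stat5a* and *Stat5b*, and they were not analysed here.

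Of 20 known targets of STAT5 or of IL-2, 5 are listed, 4 lower and 1 higher in *Irf8*-OE. *Socs1*, an inhibitor of JAK kinases, had 1994 and 1865 normalized counts in the controls and 826, 723 and 960 in *Irf8*-OE, a log2 fold change of -1.21. *Icos*, a co-stimulatory receptor, had a log2 fold change of -1.82, *Pim2*, a survival kinase, of -1.48, and *Lta*, which encodes lymphotoxin alpha, of -2.62. *Prdm1*, which encodes the repressor BLIMP1, was the member higher in *Irf8*-OE, with 84.3 and 71.0 normalized counts in the controls against 145, 150.3 and 174. The list median was -1.48, set by its 4 lower genes, beside -1.65 over the 558 lower listed genes and 1.14 over all listed genes. The 15 unlisted targets include *Cish* and *Bcl2*, so the list gives no account of the pathway as a whole.

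The genes whose pattern over the 5 samples lay nearest to that of *Il2ra* were found by the root mean square difference of centred log2 values among 843 genes with a mean of at least 50 normalized counts. They were *F2r* (a thrombin receptor), at 0.039, *Gimap9*, *Ptpn13*, *Ms4a2* and *Cd55*, at 0.057. The nearest, *F2r*, averaged 6417 ± 263 normalized counts in controls (SD, n = 2) and 1516 ± 172 in *Irf8*-OE (SD, n = 3). *Ms4a2*, the beta chain of the IgE receptor of mast cells and basophils, averaged 4693 ± 127 in controls and 1048 ± 153 in *Irf8*-OE. It is the only 1 of these genes on a marker list used below. For *Il2rb* the nearest were *Gm12250*, at 0.085, *Fat4*, *Selenom*, *Trpc6* and *Irx3*, at 0.103. *Il2rb* itself lies below the filter of 50 normalized counts, so genes as rare as *Il2rb* could not appear. The distances were larger for *Il2rb*, whose values rest on few reads.

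Markers of mast cells moved with *Il2ra*. Of 17 such markers 11 are listed, and all 11 were lower in *Irf8*-OE, with a median log2 fold change of -2.29, where 41% of all listed genes were called lower. Their summed level was 236194 to 240619 normalized counts in controls against 34231 to 38403 in *Irf8*-OE, of which *Cpa3*, the mast cell carboxypeptidase, made up the most. None of the 11 was at 0 in any sample. In bulk samples, fewer cells of a type and less RNA per cell cannot be told apart.

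The level of *Il2ra* relative to each mast cell marker was compared within samples. Relative to *Ms4a2* and per kilobase, *Il2ra* was at 1.03 and 0.995 in the controls and at 1.10, 1.004 and 1.01 in *Irf8*-OE, so that the groups overlapped. *Ms4a2* was found above as near to *Il2ra* in pattern over these same samples, so this ratio restates that nearness. Relative to *Cpa3*, *Il2ra* was at 0.0146 and 0.0143 in the controls and at 0.0256, 0.0265 and 0.0262 in *Irf8*-OE, higher in each *Irf8*-OE sample. Relative to *Kit*, the stem cell factor receptor, it was at 1.86 and 2.00 in the controls and at 1.14, 1.22 and 1.28 in *Irf8*-OE, lower in each. Over the 11 markers the ratio was higher in *Irf8*-OE without overlap for 5, lower without overlap for 4, and overlapping for 2. *Il2ra* therefore lay within the range of the mast cell markers, whose own log2 fold changes ran from -3.00 to -1.47. The median of all 558 lower listed genes, -1.65, lay in that range too, so this place is not particular to mast cell markers. The part of mast cells in the *Il2ra* difference was not tested.

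**Figure D5:**
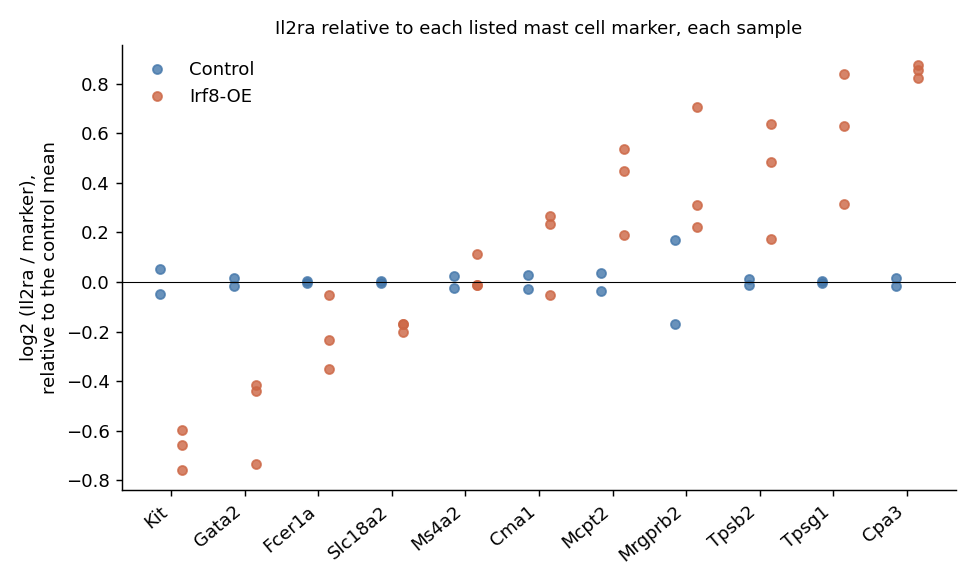
Log2 ratio of *Il2ra* to each of the 11 listed mast cell markers in each sample, relative to the mean of the 2 controls (vertical axis), with markers ordered by the group difference. Points are samples: the *Irf8*-OE samples lie below the controls for *Kit*, on a level with them for *Ms4a2* and above them for *Cpa3*.

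Other cell types that can carry IL-2 receptor chains gave mixed values. Of 18 basophil markers 15 are listed, 13 lower and 2 higher, with *Fcer1a*, *Ms4a2* and *Gata2* on the mast cell list as well. The basophil proteases *Mcpt8* and *Prss34* were the higher ones, with 167 to 188 and 96.9 to 138 normalized counts in controls against 1202 to 1277 and 1360 to 1575 in *Irf8*-OE. The summed level of the 15 was 78382 to 79621 in controls against 31943 to 33114 in *Irf8*-OE. Its largest part was *Csf2rb2*, a beta chain of the IL-3 receptor, at 37485 and 38222 in controls against 17395 to 18160 in *Irf8*-OE. The sum therefore mostly follows abundant genes other than the 2 proteases. Of 12 markers of group 2 innate lymphoid cells, 4 are listed, all lower: *Il1rl1*, *Icos*, *Il9r* and *Il13*. *Gata3* and *Rora*, which define these cells, are not listed, and mast cells also express *Il1rl1*, the IL-33 receptor. The summed level of the 4 was 24043 to 24158 in controls against 3520 to 4129 in *Irf8*-OE. The part of basophils or innate lymphoid cells in the *Il2ra* difference was not tested.

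Of 21 T cell markers 8 are listed, 7 higher and 1 lower in *Irf8*-OE. The lower 1, *Ikzf2*, held most of the summed level, which was 1091 to 1137 normalized counts in controls against 460 to 536 in *Irf8*-OE. The higher ones were rare, as *Il2rb* was. *Cd4* had 5.62 and 7.68 normalized counts in the controls and 26.8, 24.3 and 29.1 in *Irf8*-OE, and *Cd6* had 3.37 and 4.80 against 47.0, 44.8 and 61.3. The T cell receptor genes *Cd3e* and *Trbc1* had 0 reads in both controls, which allows a level of up to 3.37 normalized counts, and 1.92 to 13.1 normalized counts in *Irf8*-OE. *Foxp3* and *Ctla4*, known in regulatory T cells, are not listed.

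Of 15 NK cell markers 5 are listed, 4 lower and 1, *Klra4*, higher (1.12 and 0 normalized counts in the controls against 18.2, 21.5 and 23.1). *Gzmb*, which encodes granzyme B, had 1137 and 1241 normalized counts in the controls against 345 to 401 in *Irf8*-OE, and the summed level of the 5 was 1849 to 2015 in controls against 526 to 590. *Ncr1*, which defines NK cells, is not listed. The part of T or NK cells in the *Il2rb* difference was not tested.

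Of 22 genes of dendritic cell maturation, a state in which CD25 can appear, 3 are listed, all higher in *Irf8*-OE, the direction of 58.1% of all listed genes: *Fscn1*, *Cd40* and *Il12b*. The other 19 are not listed. *Fscn1*, which encodes the actin-bundling protein fascin, had 4207 and 3985 normalized counts in the controls and 12663, 12138 and 12704 in *Irf8*-OE. Of the remaining cell types, B-lineage markers gave 8 higher of 8 listed (21 in the list), macrophage markers 9 of 9 (15 in the list), stromal markers 8 of 9 (14 in the list) and neutrophil markers 3 of 4 (12 in the list), beside the 58.1% of all listed genes called higher.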

How the data were processed

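The authors' table of 1355 called genes was used, from RNA-seq of 3 *Irf8*-OE and 2 control BMDC cultures. Per the submitters' processing notes, fastp, HISAT2 2.0.5, featureCounts 1.5.0-p3, DESeq2 1.20.0 and edgeR 3.22.5 were used with build mm10. The deposited signal values are normalized counts, that is, reads scaled by 1 size factor in each sample with no division by length. The deposited log2 fold change, p-value and adjusted p-value hold the authors' own comparison and were not used, nor were their group means. Of the listed genes, 1354 are in GENCODE vM21 and 1313 have the same position there, and the lengths of both subunits equal their joined exons.

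Reads were recovered from the step of each sample, of which 100% of values were multiples within 0.01 reads. The step of *Irf8*-OE replicate 3, 1.004, lies too near 1 for an automated check, although 0% of its values above 0 are whole, so tests on reads are alternatives only. Depth limits *Il2rb*: 3 reads correspond to 2.80 to 3.37 normalized counts.

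All genes were fitted with limma 3.58.1 (R 4.3.3) on log2(normalized counts + 1), with Benjamini-Hochberg adjustment over the 1355 genes. That scale understates changes of low genes. The fit was tested on simulated data. Intervals were computed in scipy 1.17.1. Samples were grouped by their titles. By description, control replicates 1 and 2 are WT2 and WT3 and the *Irf8*-OE samples are KI1 to KI3, and no WT1 is among the samples. The members and lists were chosen with earlier results of these data known. The genes named are the members, every listed gene of the gamma chain, signalling and target lists, and up to 4 abundant listed genes of each marker list. The 5 genes nearest in pattern to each member and listed genes within 1 Mb are named too. *Mcpt8*, *Prss34*, *Klra4*, *Cd3e*, *Trbc1*, *Trbc2*, *Siglech* and *Fcer1a* were added after their values were seen. Alternatives were quantile normalization, pseudocounts of 0.1 and 10, a filter of 10 normalized counts in every sample of 1 group, edgeR 4.0.16, DESeq2 1.42.0, replicate blocks, a threshold of 2 and leaving out each sample. The tests on reads with the authors' size factors and those without *Irf8*-OE replicate 3 were added after the data were seen.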

Additional observations from a re-analysis of the deposited data

How the results depend on the processing

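*Il2ra* stayed lower and *Il2rb* higher in *Irf8*-OE in every setting in which they were refitted. The alpha to beta ratio, recomputed only under other pseudocounts, replicate blocks and left-out samples, stayed lower. The log2 fold changes of *Il2ra* and *Il2rb* were -1.56 and 0.65 after quantile normalization, -2.45 and 1.29 with edgeR, and -3.09 and 0.66 with DESeq2. Without *Irf8*-OE replicate 3 they were -2.51 and 1.29 with edgeR and -3.17 and 0.64 with DESeq2. These settings rescale the samples on called genes alone and moved the median of all genes by -0.36 (quantile), -0.31 (edgeR) and -0.95 (DESeq2), whereas with the authors' size factors DESeq2 gave -2.14 and 1.61. A pseudocount of 10 gave 1.01 for *Il2rb* and -3.15 for the log2 ratio.

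Of the listed genes, 851 were called with DESeq2, 766 with DESeq2 without *Irf8*-OE replicate 3, and 518 at an absolute log2 fold change of 2. With each sample left out in turn, calls ranged from 1238 to 1318, *Il2ra* from -2.21 to -2.06, *Il2rb* from 1.41 to 1.62 and the log2 ratio from -3.87 to -3.59. A lone control was then assumed to vary like the other group. Sample numbers gave no sign of pairing: deviations of same-numbered samples correlated at 0.03 and 0.02 across genes by title number, and at -0.02 and 0.009 by description number. With 2 controls, whose deviations mirror each other, and genes listed for their group difference, this check cannot exclude a shared preparation. The replicate block by title number gave 1319 calls, -2.21, 1.51 and -3.81, and by description number 1271 calls, -2.06, 1.44 and -3.59.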

Other observations

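Listed genes within 1 Mb of each member were also described. Within the span of *Il2ra* lies *Gm37881* (chr2:11683126-11683546, plus strand), which shares 0 bases with the annotated exons of *Il2ra*. It had 43.8 and 30.7 normalized counts in the controls and 7.67, 13.1 and 9.04 in *Irf8*-OE, a log2 fold change of -1.82. Reads from unspliced *Il2ra* transcripts would be counted there as well, and the 2 sources cannot be told apart.

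Around *Il2rb*, 9 genes are listed. Beside 797 higher and 558 lower of all 1355 listed genes, 8 of the 9 had a higher and 1 a lower mean log2 level in *Irf8*-OE. The lower 1, *Csf2rb2*, a beta chain of the IL-3 receptor, is also the nearest, 174 kb away, and had 37485 and 38222 normalized counts in controls against 17395 to 18160 in *Irf8*-OE. *Apol7c*, of the apolipoprotein L family, had 45.0 and 48.9 normalized counts in the controls and 413, 434 and 394 in *Irf8*-OE. *Apol7c*, *Apol10b*, *Gm8221*, *Gm49410* and *Apol8*, all higher, lie on the same side of *Il2rb*, 722 to 946 kb away. *Gcat*, also higher, was not called, at 0.98. The neighbours of *Il2rb* thus included both directions, and their count was not tested.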
